A study of Homo sapiens with 24 samples.

Results

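The genes described here are 8 that are widely used as internal references in quantitative PCR: ACTB, GUSB, HPRT1, PPIA, SDHA, TBP, YWHAZ and TFRC. They were found as every non-control feature of the array files that carries one of these gene names, which gave 17 probes for 8 genes, of 18206 genes tested. All 17 probes were on both array designs and were well above background in both colours on all 24 arrays, and all 8 genes passed the filter on dim probes. The genes were picked by name and not by a measured value, but earlier results of these data were known when they were chosen.

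Each of the 24 two-colour arrays compared treated RNA, labelled with Cy5, with control RNA of the same cell line, labelled with Cy3. The prostate cancer (PCa) lines were PC3, DU145 and LNCap, the renal cell carcinoma lines were A498 and 786O, and the head and neck squamous cell carcinoma lines were FaDu and SAS. Genistein, a soy isoflavone, was given to PC3 and DU145, and wogonin, a plant flavone, was given to SAS and FaDu and compared with DMSO. The labels call the control of genistein untreated, while the study's methods name a DMSO vehicle, and which of them the arrays used is not settled here. The chemokine CXCL10 was given to 786O for 12 or 24 h and compared with untreated cells. The other arrays were transfections compared with cells that the labels call control: miR-145 in PC3, DU145 and LNCap; miR-143 in PC3 and DU145; miR-23b, miR-24 and miR-27b in PC3; miR-27b in 786O and A498; miR-375 in FaDu; miR-29a in SAS; si-CAV2 in A498 and 786O; si-LAMB3 in FaDu and SAS; and si-GOLM1 in DU145 and PC3. Every line and treatment was a single array with no dye swap, so the arrays of 1 treatment in different lines stood in for replicates, and the spread among them includes the difference between lines and p-values measure that spread alone. The labels do not say whether arrays of 1 line shared control RNA, and they give a time for CXCL10 alone.

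The arrays lay on 3 slides of 8, the third of a newer design. On the 8 arrays of slide 3 between 7.40 and 13.2% of the genes tested were more than 0.5 from 0 on the log2 scale, against 52.4% on the PC3 miR-24 array of slide 2. The renal and squamous lines showed their defining markers: PAX2 was well above background on all 6 renal arrays and on no other, and KRT5 on all 6 squamous arrays and on no other.

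A reference gene is used to correct for differences in the amount of RNA and in the efficiency of reverse transcription, and it can do so only if its own level is the same in the samples compared. The usual candidates were picked from different parts of cell physiology so that they would not move together. ACTB encodes cytoplasmic beta-actin, GUSB the lysosomal enzyme beta-glucuronidase, HPRT1 the purine salvage enzyme that recycles hypoxanthine and guanine, and PPIA cyclophilin A, a peptidyl-prolyl isomerase. SDHA is the flavoprotein subunit of succinate dehydrogenase, TBP the TATA-binding protein, YWHAZ the 14-3-3 zeta adaptor protein, and TFRC the transferrin receptor that takes up iron.

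Transfected miRNAs gave several of the widest excursions of the reference genes, so the mature sequences of those miRNAs are shown, from RefSeq on GRCh38.p14, with the seed (bases 2 to 8) in capitals. The labels name no arm, and both arms are given. The arm of miR-24 ending in 3p is the same from both of its loci (chr9:95086064-95086085, plus strand, and chr19:13836289-13836310, minus strand), miR-145 lies at chr5:149430661-149430720 on the plus strand, miR-375 at chr2:219001648-219001704 on the minus strand and miR-23b at chr9:95085227-95085287 on the plus strand.
hsa-miR-24-3p: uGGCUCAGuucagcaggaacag
hsa-miR-24-1-5p: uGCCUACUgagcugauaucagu
hsa-miR-24-2-5p: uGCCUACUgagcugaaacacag
hsa-miR-145-5p: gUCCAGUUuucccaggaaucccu
hsa-miR-145-3p: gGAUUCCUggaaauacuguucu
hsa-miR-375-3p: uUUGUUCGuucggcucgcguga
hsa-miR-375-5p: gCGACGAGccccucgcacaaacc
hsa-miR-23b-3p: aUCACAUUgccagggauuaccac
hsa-miR-23b-5p: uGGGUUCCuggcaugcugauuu
Only the 2 arms of miR-24 that end in 5p share a seed among these 9 sequences. Target sites were not searched.

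The 8 genes differed in how steady they were. YWHAZ and TBP had the smallest spread of the treated over control ratio, with standard deviations over the 24 arrays of 0.226 and 0.229 (log2 scale), and HPRT1 and TFRC the largest, at 0.495 and 0.476. GUSB (0.286), SDHA (0.305), PPIA (0.333) and ACTB (0.371) lay between. The median over the 8 was 0.319, against 0.439 over all 18206 genes and 0.364 over the 12106 genes that were well above background in both colours on every array. Thus 6 of the 8 varied less than the median gene and 5 of the 8 less than the median well-measured gene, while HPRT1 varied more than 77.2% and TFRC more than 74.2% of the well-measured genes. YWHAZ varied more than 12.9% of them and TBP more than 13.5%.

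**Figure D1:**
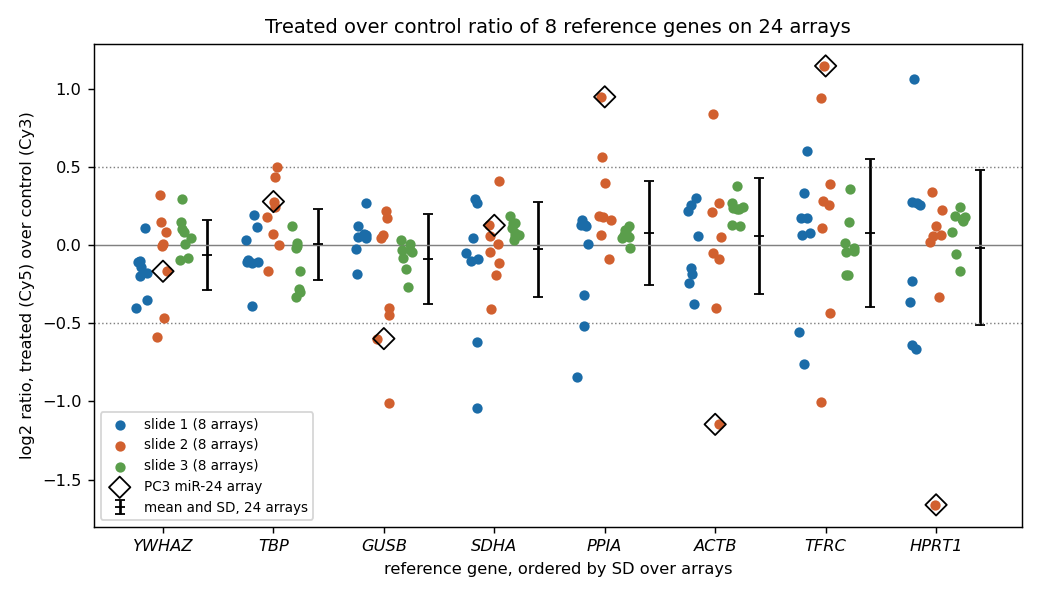
Log2 ratio of treated over control RNA (vertical axis) for each reference gene (horizontal axis, from smallest to largest SD) on 24 arrays, 1 point per array, coloured by slide, with the mean and SD at the right of each gene and open diamonds on the PC3 miR-24 array. No point of slide 3 passes the dotted lines at 0.5 and -0.5, and the lowest ACTB and HPRT1 points and the highest PPIA and TFRC points belong to the PC3 miR-24 array.

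No reference gene was called for its mean over the study as a whole, although PPIA was called under 2 other background corrections (0.17, adjusted p = 0.0464 with normexp, and 0.18, adjusted p = 0.0445 with none). The mean log2 ratio over 24 arrays ran from -0.09 for GUSB to 0.08 for TFRC. With limma and Benjamini-Hochberg adjustment over all probes tested, 0 of the 8 were called. None of the 8 had an unadjusted p under 0.05 either, with adjusted p between 0.345 and 0.978. Among all genes 8.34% were called higher and 5.26% lower in Cy5, the colour of the treated RNA. Dyes were not swapped, so a dye bias of a probe and an effect shared by the treatments cannot be told apart here. A test of a single treatment against 0 has the same limit. In RNA from a whole culture a lower level in each cell and fewer cells that express the gene cannot be told apart.

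Single arrays departed further than the means. Of the 192 values of a reference gene on an array, 7 (3.65%) were above 0.5 and 14 (7.29%) below -0.5, against 12.9 and 11.3% of the values of all genes. Past 1, there were 2 values above and 5 below, where all genes had 4.56 and 3.77%. These 21 values came from 11 arrays, none of them on slide 3. On slides 1 and 2 there were 10 and 11 values past 0.5.

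Among the genes that hold cell structure and trafficking, ACTB had a lowest value of -1.15, a median of 0.17 and a highest value of 0.84. The low value was PC3 miR-24 and the high one SAS si-LAMB3, and the other 22 arrays lay within 0.5 of 0. YWHAZ, whose 14-3-3 product binds phosphorylated partner proteins, ran from -0.59 through a median of -0.05 to 0.32. Its lowest arrays were SAS and FaDu si-LAMB3, followed by A498 and 786O si-CAV2 at -0.40 and -0.35. TFRC ran from -1.003 to 1.14 with a median of 0.09. Its lowest value, PC3 miR-23b, and its highest, PC3 miR-24, came from the same line and slide, and with 6 arrays past 0.5 it had the most of the 8 genes.

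Among the metabolic genes, HPRT1 had the widest range, from -1.66 on the PC3 miR-24 array through a median of 0.10 to 1.06 on the FaDu miR-375 array, which is a 6.59-fold range. GUSB ran from -1.01 (SAS si-LAMB3) to 0.27 (DU145 genistein) with a median of -0.01, and SDHA from -1.04 (PC3 genistein) to 0.41 (PC3 miR-27b) with a median of 0.05. Both had 2 arrays below -0.5 and none above 0.5. PPIA, which assists protein folding, ran from -0.84 (PC3 genistein) to 0.95 (PC3 miR-24) with a median of 0.09. TBP, which nucleates the transcription initiation complex, ran from -0.39 (LNCap miR-145) to 0.50 (SAS si-LAMB3) with a median of -0.00, and was the only one of the 8 with no array past 0.5. Of all genes tested, 5.07% had no such array, and of the well-measured genes 7.52%.

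The PC3 miR-24 array held the most departures. On it HPRT1 was at -1.66, ACTB at -1.15, GUSB at -0.60, YWHAZ at -0.17, SDHA at 0.13, TBP at 0.28, PPIA at 0.95 and TFRC at 1.14. Thus 5 of the 8 were past 0.5, in both directions, beside 52.4% of all genes tested on that array. The lowest and highest of the 8 were 2.81 apart on the log2 scale. The PC3 miR-24 array is a single array with no repeat. Without it the SD fell to 0.358 for HPRT1 and 0.274 for ACTB, and TFRC then had the largest, 0.427. The smallest SD without it was that of TBP, 0.227, with YWHAZ at 0.230.

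**Figure D2:**
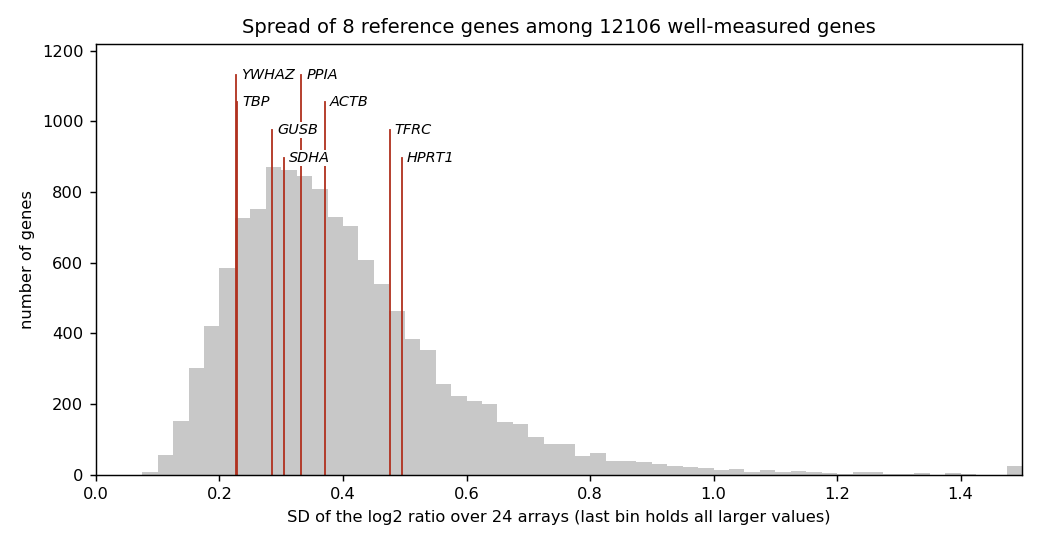
Distribution of the SD of the log2 ratio over 24 arrays (horizontal axis) among the 12106 genes well above background in both colours of every array (grey bars, number of genes), with a red line at each reference gene. The reference genes spread from 0.226 for YWHAZ to 0.495 for HPRT1 and sit among the other genes, not apart from them.

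Repeated spots of a probe lay close together. For reference probes printed at 10 spots of an array, the median SD of the log2 ratio between spots was 0.029 for GUSB and HPRT1 (HPRT1 on the first design alone), 0.027 for TFRC, 0.025 and 0.023 for the second probes of PPIA and ACTB and 0.079 for TBP. The brightest PPIA and SDHA probes had 1 spot. The scanner software's own error for a single log2 ratio had a median of 0.204 to 0.206 for the 8 genes, close to the SDs of YWHAZ and TBP over arrays. Beyond 2 of these errors lay 7 arrays for TFRC, 4 for HPRT1 and PPIA, 3 for GUSB and 2 for each of the others. On slide 3 the SD of the 8 genes was between 0.0416 and 0.179, with a median of 0.112, all below that error. The median there was 0.193 for all genes and 0.149 for the well-measured genes. On slide 2 the median was 0.383 for the 8, 0.480 for all genes and 0.403 for the well-measured genes. Treatments, lines and slides changed together, and their parts in the difference between slides cannot be told apart.

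Whether the 14 treatments moved the genes differently was tested with 1 F-test per probe. HPRT1 (adjusted p = 0.00494), TFRC (0.0272), PPIA (0.0356) and ACTB (0.0474) were called by limma, which is 4 of 8 beside 28.8% of all genes. YWHAZ (0.0894), TBP (0.128), GUSB (0.199) and SDHA (0.239) were not. With slide as a random block PPIA (0.0565) and ACTB (0.0625) were not called. Without the PC3 miR-24 array HPRT1 alone was called, with adjusted p of 0.281 for ACTB, 0.108 for PPIA and 0.0654 for TFRC. The residual spread rested on 10 degrees of freedom, all from the same treatment in different lines. Treatments on 1 array were part of the test but added nothing to that spread, and their treatment and line cannot be told apart.

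Under genistein PPIA and SDHA were lower in PC3 and DU145. PPIA was at -0.84 in PC3 and -0.52 in DU145 (mean -0.68 ± 0.14, SE, adjusted p = 0.0081 by limma), and SDHA at -1.04 and -0.10 (mean -0.57 ± 0.18, adjusted p = 0.0479). The 2 lines agreed in direction for both genes, but the SDHA value came from PC3: without that array it was -0.10, with an adjusted p of 0.782. The SDHA call was lost in 16 of 24 removals of an array, with slide as a random block (adjusted p = 0.103), without the filter on dim probes (0.0657) and against the mean of the other treatments (0.0656). PPIA without PC3 was -0.52 (adjusted p = 0.133). TFRC was at 0.33 in PC3 and 0.60 in DU145, and its mean of 0.46 was not called (adjusted p = 0.12). These were 2 of 8, beside 16.4% of all genes.

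GAPDH, a glycolytic enzyme and an internal control of quantitative PCR in the study's methods, is not among the 8 but was in the list of other reference genes. It was at -0.92 in PC3 and -0.73 in DU145 under genistein (mean -0.83, adjusted p = 9.1e-04 by limma). In the same list PGK1, also glycolytic, was at -1.11 on average (adjusted p = 0.00121), while the ribosomal protein genes RPLP0 (0.57) and RPL13A (0.63), the translation factor EIF4A2 (0.56) and the ubiquitin-conjugating enzyme UBE2D2 (0.50) were called higher. PSMB4, a proteasome subunit, was at 0.02 and was not called (adjusted p = 0.955). Beside GAPDH, GUSB was at -0.19 in PC3 and 0.27 in DU145, and TBP at 0.11 and 0.19.

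Under miR-145 HPRT1 was lower in all 3 lines, at -0.67 in PC3, -0.23 in DU145 and -0.64 in LNCap (mean -0.51 ± 0.12, SE, adjusted p = 0.0175). It was the only reference gene called, 1 of 8 beside 11.6% of all genes. Without PC3 the mean was -0.43 (adjusted p = 0.175) and without LNCap -0.45 (adjusted p = 0.0976), and with slide as a random block the call was lost (adjusted p = 0.0712). TFRC was at -0.76 in PC3, -0.55 in DU145 and 0.07 in LNCap, and its mean was not called (adjusted p = 0.111).

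Under si-LAMB3 GUSB and YWHAZ were lower and TBP higher in both squamous lines. GUSB was at -0.40 in FaDu and -1.01 in SAS (mean -0.71 ± 0.16, SE, adjusted p = 0.0151). YWHAZ was at -0.47 and -0.59 (mean -0.53 ± 0.12, adjusted p = 0.0119), and TBP at 0.44 and 0.50 (mean 0.47 ± 0.13, adjusted p = 0.0283). ACTB, at 0.21 and 0.84, had a mean of 0.53 and was not called (adjusted p = 0.0528). These 3 of 8 stood beside 14.2% of all genes. The YWHAZ call depended on its probe, since the second YWHAZ probe was at -0.07 in SAS, and the mean over both probes was -0.39 with an adjusted p of 0.0844. Without the SAS array GUSB was at -0.40 (adjusted p = 0.342), YWHAZ at -0.47 (0.166) and TBP at 0.44 (0.237), and without the FaDu array TBP was at 0.50 (0.111). With slide as a random block TBP was at 0.43 and not called (adjusted p = 0.0800).

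No reference gene was called under wogonin, miR-27b, miR-143, si-GOLM1 or si-CAV2. Of all genes 7.94% were called for wogonin, 1.55% for miR-27b, 0.0275% for miR-143, 0.368% for si-GOLM1 and 0.242% for si-CAV2. At an unadjusted p under 0.05 there was 1 gene under wogonin (TFRC, 0.94 in SAS and 0.26 in FaDu, adjusted p = 0.0747), 1 under si-CAV2 (YWHAZ, adjusted p = 0.443) and 0 under the other 3. Over the 8 treatments on more than 1 array, 6 of 64 pairs of a gene and a treatment were called, beside 6.54% of the pairs of all genes. The CXCL10, miR-23b, miR-24, miR-29a and miR-375 arrays had no repeat and were not tested against 0. They did enter the F-test, and the miRNA arrays among them also entered the comparison with small molecules.

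The 4 arrays of small molecules were set against the 18 arrays of miRNA and siRNA transfections, with treatments weighted equally. PPIA was lower with the small molecules, with a difference of -0.38 ± 0.11 (SE, adjusted p = 0.043), and TFRC higher by 0.53 ± 0.15 (adjusted p = 0.0371), 2 of 8 beside 14.1% of all genes. PPIA was low with genistein alone, since with wogonin it was at 0.40 in SAS and 0.06 in FaDu. Averaging the 5 PPIA probes gave -0.18 (adjusted p = 0.248). Both calls were near the threshold, and the removal of single arrays ended the PPIA call for 13 and the TFRC call for 12 of the 24 arrays, among them PC3 genistein (PPIA -0.30, TFRC 0.60) and SAS wogonin (PPIA -0.46, TFRC 0.36).

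A pair of reference genes is useful if the difference between them is constant. The SD of the difference of log2 ratios was smallest for PPIA and SDHA, 0.265, followed by GUSB and YWHAZ, 0.280, and SDHA and YWHAZ, 0.286, of 28 pairs. It was largest for HPRT1 and TFRC, 0.713, and HPRT1 and PPIA, 0.693. HPRT1 and TFRC were 2.81 apart on the PC3 miR-24 array, with HPRT1 the lower, and 0.998 apart the other way on the FaDu miR-375 array. On the PC3 miR-24 array 14 of the 28 pairs had their largest difference. PPIA and SDHA, the pair with the smallest SD, were both low on PC3 genistein, at -0.84 and -1.04. On PC3 miR-24 they were at 0.95 and 0.13.

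**Figure D3:**
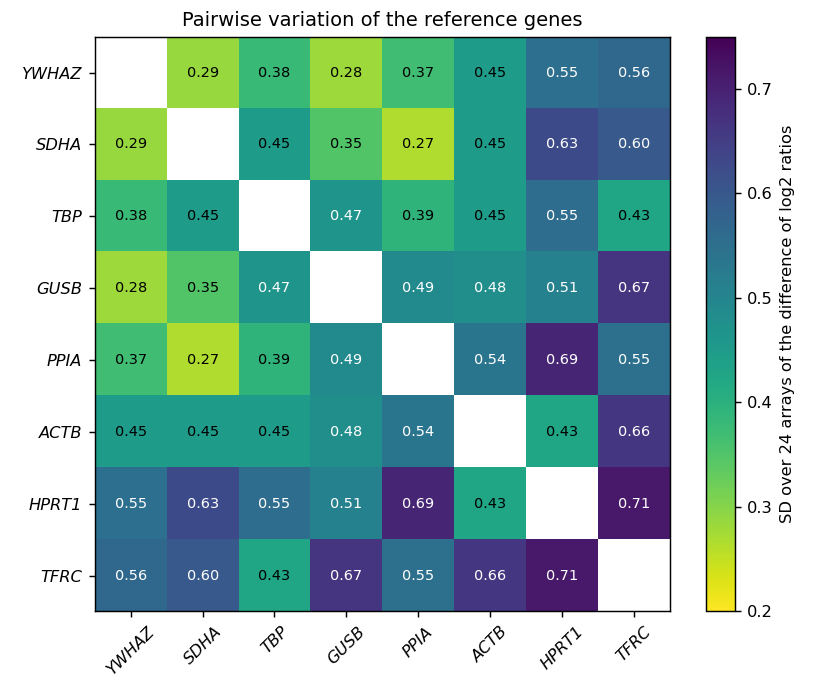
SD over 24 arrays of the difference of log2 ratios (colour and printed value) for every pair of the reference genes, ordered by the mean of their pairwise SDs. The smallest value is that of PPIA and SDHA, 0.27, and the rows of HPRT1 and TFRC hold the largest values.

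The mean of a gene's 7 pairwise SDs is called M in the geNorm method. It is smaller if the gene's differences from the others vary less. M put YWHAZ first (0.411), then SDHA (0.431), TBP (0.445), GUSB (0.462), PPIA (0.470), ACTB (0.493), HPRT1 (0.581) and TFRC (0.597). SDHA was the fourth by its own SD and the second by M. Without the PC3 miR-24 array M was 0.372 for YWHAZ, 0.375 for PPIA, 0.389 for SDHA, 0.390 for ACTB, 0.395 for TBP, 0.422 for GUSB, 0.443 for HPRT1 and 0.504 for TFRC, so that 5 genes lay between 0.372 and 0.395. The mean log2 ratio of all 8 had an SD over arrays of 0.122 and ran from -0.31 on PC3 genistein to 0.29 on PC3 miR-27b.

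What the choice of reference does to a knock-down can be read from the 6 siRNA arrays, each with its own target gene. On the array of SAS si-LAMB3 the target LAMB3, a chain of laminin-332, was at -0.89. Relative to ACTB it was at -1.72, which leaves 30.3% of the control level, and relative to GUSB at 0.12, which leaves 109%. The 8 references thus spanned 1.85 on the log2 scale, or 3.60-fold, and 1 of them put the target above its control. In FaDu the same target was at -2.50, and the references gave -2.94 (TBP) to -2.03 (YWHAZ), or 13.0 to 24.4% of control.

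The other knock-downs were less dependent on the reference. CAV2, which encodes caveolin-2, was at -3.80 in A498 and -3.20 in 786O, with spans of 0.70 and 0.62 over the references. GOLM1, a Golgi membrane protein, was at -3.02 in DU145 and -4.15 in PC3, with spans of 0.21 and 0.64. In DU145 the remaining GOLM1 was 10.9 to 12.6% whatever the reference. Each value is 1 array.

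**Figure D4:**
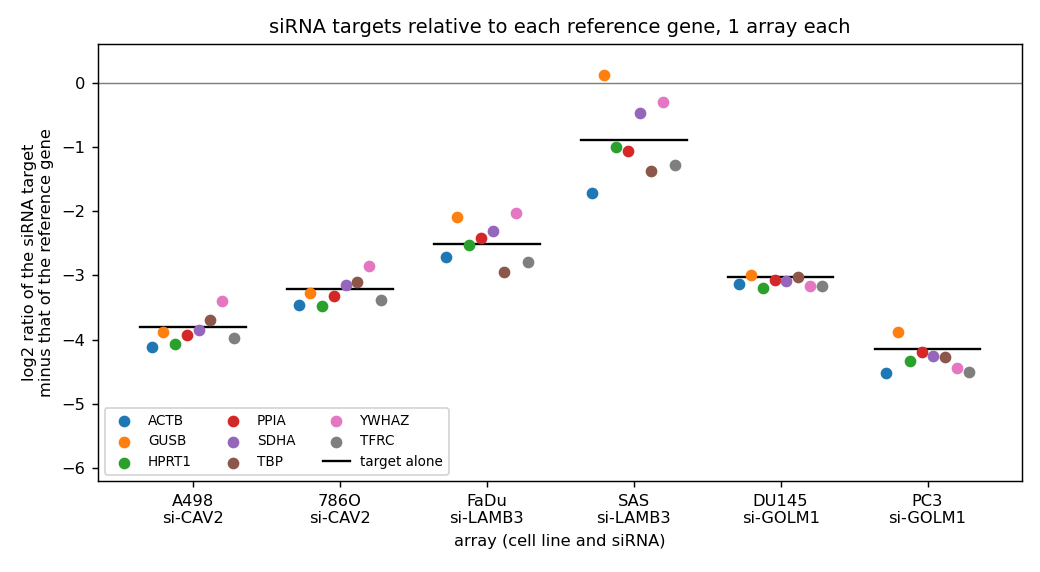
Log2 ratio of each siRNA target minus that of each reference gene (vertical axis; coloured points) on the 6 siRNA arrays (horizontal axis), with a black line at the target's own log2 ratio. The points of SAS si-LAMB3 spread from -1.72 to 0.12, those of DU145 si-GOLM1 from -3.19 to -2.99.

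The level of the reference genes in control RNA differed among lines. Levels are Cy3 signals above the array's 75th percentile on the log2 scale, 1 probe per gene, and are compared between lines only within a gene. With slide as a term in limma, the 7 lines differed for SDHA (adjusted p = 5.5e-06), YWHAZ (1.7e-05), GUSB (5.3e-05), PPIA (3.9e-04), TBP (0.00115) and TFRC (0.014), 6 of 8 beside 78.3% of all genes. HPRT1 (0.0701) and ACTB (0.428) were not called. A share of 6 in 8 is close to the share of all genes. Each array counted as a replicate of its line. The labels do not say whether arrays of a line shared control RNA. If they did, these p-values leave out the spread between cultures.

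**Figure D5:**
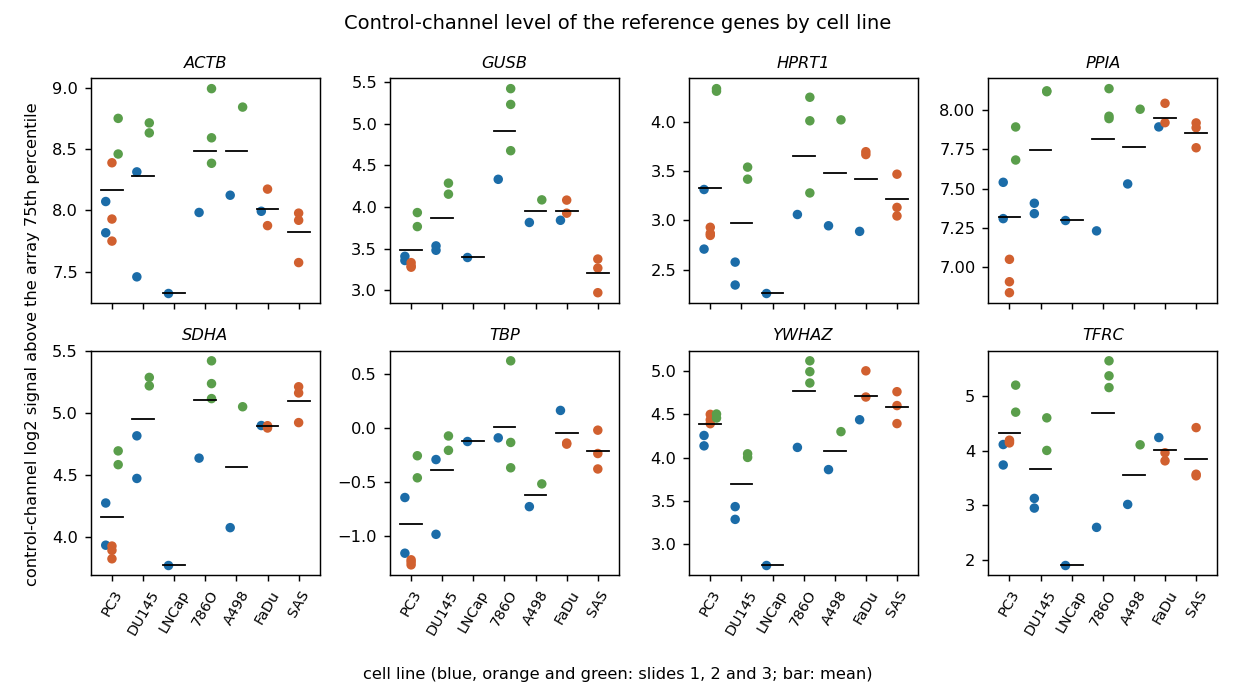
Control-channel signal of each reference gene above the 75th percentile of its array (log2 scale, vertical axes differ between panels) in the 7 cell lines (horizontal axis), 1 point per array, coloured by slide, with a bar at the mean of the line. Points of slide 3 sit above those of slide 1 within PC3, DU145, 786O and A498 for each gene, except that 2 of the 3 TBP points of 786O sit below.

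Slide moved with these levels. Slide 3 was above slide 1 for all 8 genes after the lines were allowed for, by 0.39 ± 0.15 (SE) for TBP up to 1.46 ± 0.24 for TFRC, and A498 and 786O had all their arrays on slides 1 and 3, SAS all on slide 2. Without the slide term PPIA (adjusted p = 0.273) and TFRC (0.087) were no longer called.

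By the means as measured the renal line 786O, with 3 of its 4 arrays on slide 3, was highest for 7 of the 8 genes and LNCap, with 1 array, lowest for 6. With slide allowed for, FaDu was highest for HPRT1, PPIA, TBP, YWHAZ and TFRC, A498 for ACTB, SAS for SDHA and 786O for GUSB alone, and LNCap was lowest for 5. For GUSB 786O stood clear, at 4.92 ± 0.50 (SD, n = 4, range 4.33 to 5.42). The next, A498, was at 3.95 ± 0.19 (n = 2), and no GUSB value of another line reached the range of 786O. FaDu, DU145, PC3 and LNCap followed with neighbours that overlapped, and SAS was lowest at 3.21 ± 0.21 (n = 3), below the LNCap array. The highest and lowest lines were 3.27-fold apart, or 2.45-fold with slide allowed for.

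For YWHAZ, 786O (4.77 ± 0.45), FaDu (4.71 ± 0.28), SAS (4.58 ± 0.18), PC3 (4.38 ± 0.14), A498 (4.08 ± 0.31) and DU145 (3.69 ± 0.39) overlapped each with the next, and LNCap (2.76) lay below all, 4.02-fold under 786O, or 3.003-fold with slide allowed for. SDHA was low in PC3, at 4.16 ± 0.36 (n = 7), and lower in LNCap, at 3.77. The other lines were between 4.56 and 5.10 and overlapped each with the next. With slide allowed for, SDHA was above PC3 by 1.20 ± 0.11 (SE) in SAS, 0.95 ± 0.10 in FaDu and 0.60 ± 0.10 in DU145.

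TBP was lowest in PC3, -0.89 ± 0.43 (n = 7), and between -0.62 and 0.01 in the other lines, with every neighbour overlapping. PPIA ran 1.57-fold from FaDu (7.95 ± 0.08) to LNCap (7.30), also with every neighbour overlapping. With slide allowed for it spanned 1.83-fold, from FaDu to PC3, and ACTB 1.74-fold, from A498 to LNCap. ACTB ran from 8.49 ± 0.42 in 786O to 7.33 in LNCap and HPRT1 from 3.65 ± 0.57 to 2.27 in the same lines. In both, only the last line did not overlap with its neighbour.

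TFRC had the widest contrast of the 8, 6.90-fold from 786O (4.69 ± 1.41) to LNCap (1.91). With slide allowed for these lines were 3.23-fold apart, and FaDu was the highest, 3.85-fold over LNCap. In 786O its 4 arrays were at 5.65, 5.37, 5.16 and 2.59, and the low one was the si-CAV2 array, the only one of them on slide 1. On slide 1 786O was below both PC3 arrays (4.11 and 3.74) and on slide 3 its lowest array lay between the PC3 arrays (5.20 and 4.71) and the other 2 above both. Without the LNCap array the TFRC difference among lines was not called (adjusted p = 0.0622).

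Probes of 1 gene mostly moved together. The 2 ACTB probes differed by at most 0.44 on any array and the 4 SDHA probes by at most 0.35 from the brightest. YWHAZ was an exception: its 2 probes, whose hg19 positions in the array files are chr8:101931108-101931167 and chr8:101960836-101960895 on the minus strand, were more than 0.5 apart on 5 arrays. The dimmer one was at -0.75 on DU145 si-GOLM1, -0.72 on 786O CXCL10 24h and -0.65 on PC3 miR-145, where the brighter one was at 0.14, 0.04 and -0.11. By the dimmer probe the SD of YWHAZ was 0.308 in place of 0.226, which would put it after GUSB and SDHA.

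PPIA had 5 probes. The brightest (chr7:44841005-44841064, hg19) and 3 others followed each other, with SDs of 0.276 to 0.333, the lowest value on PC3 genistein and the highest on PC3 miR-24 for all 4. The fifth (chr7:44842121-44842180), much the dimmest, had an SD of 0.519, with -1.40 on SAS si-LAMB3, 1.03 on SAS wogonin and -0.90 on PC3 miR-24, and was more than 0.5 from the brightest on 6 arrays.

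One of the 4 that moved together is placed on another chromosome by the array files. It is shown beside the probe of chromosome 7 that it resembles, each 60 bases, 5′ to 3′, with the bases that differ in capitals.
A_24_P340679, PPIA, chr7:44839021-44839301, plus strand: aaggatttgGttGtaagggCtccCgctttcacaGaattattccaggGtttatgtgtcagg
A_24_P246943, PPIA, chr9:7598010-7598069, plus strand: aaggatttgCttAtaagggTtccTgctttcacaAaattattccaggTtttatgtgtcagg
Counted from 1 at the 5′ end, with the chromosome 7 probe first, the substitutions are G10C, G13A, C20T, C24T, G34A and G47T. The probe of chromosome 9 had an SD of 0.276 and a mean log2 ratio of -0.08, and that of chromosome 7 0.282 and -0.07. Probes this alike can bind the same labelled RNA, and whether either measured PPIA alone was not tested.

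The genes whose log2 ratios followed each member most closely were ranked by Pearson's r over the 24 arrays, which share slides and lines, and the r is given as a description. For PPIA the 3 closest were transcripts without a gene symbol in the array files, with r of 0.994, 0.990 and 0.985. HPRT1 was followed by E2F1 (0.906), WRAP53 (0.897) and PVRL1 (0.895), ACTB by LCE1A (0.868) and ASTN2 (0.850), SDHA by LOC220729 (0.867), IQGAP3 (0.801) and LOC100131094 (0.800), and GUSB by PSMD4 (0.853), ALMS1 (0.806) and ADCK5 (0.797). TFRC was followed by ZNF721 (0.841), ZBED4 (0.823) and DCLRE1A (0.813), YWHAZ by KPNA6 (0.837), RAB10 (0.819) and OAT (0.775), and TBP by COPS3 (0.791), CLCC1 (0.781) and LOC221710 (0.765). Without the PC3 miR-24 array r fell to 0.762 for ACTB and LCE1A and to 0.860 for HPRT1 and E2F1, and was 0.833 for GUSB and PSMD4.

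The steadiest genes of the arrays were none of the reference genes. Among the well-measured genes the smallest SDs were those of CPSF7 (0.092), C2orf63 (0.093), ADAMTSL5 (0.097), BX648603 (0.097) and UTF1 (0.097). These are the extremes of 12106 and were chosen for their SD. Of the 15 other reference genes the median SD was 0.349. UBE2D2 (0.212) and RPLP0 (0.224) were below YWHAZ, PSMB4 was at 0.230, and PGK1 was at 0.550. On PC3 miR-24, where HPRT1 and ACTB were at their lowest, PGK1 was at -2.16 and RPL13A at -1.34. The treatment F-test called 8 of these 15, beside 28.8% of all genes.

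Genes of the same pathways or families as the 8 ranged widely. Neighbours of SDHA in the succinate dehydrogenase complex and the Krebs cycle had a median SD of 0.242 over 9 genes, with 5.09% of their values past 0.5 and 2 of 9 called by the F-test. SDHC, another subunit, was at 0.138. Cyclophilins other than PPIA had 0.305 over 8 genes (3 called), general transcription factors near TBP 0.334 over 9 (3 called) and lysosomal glycosidases near GUSB 0.345 over 8 (3 called). The 14-3-3 genes other than YWHAZ had 0.376 over 6 (4 called) and a list of cytoskeleton genes and targets of the transcription factor SRF, which holds SRF itself and the secreted protein CTGF, 0.403 over 9 (4 called). Purine enzymes near HPRT1 had 0.445 over 8 (3 called), and genes of iron uptake and storage 0.519 over the 7 of 9 that passed the filter (2 called). Over all genes the median was 0.439, with 24.2% of values past 0.5 and 28.8% called.

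APRT, the adenine counterpart of HPRT1 in purine salvage, was at -2.92 on PC3 miR-24. Under si-LAMB3, where YWHAZ was lower, YWHAH was at -2.09 (adjusted p = 5.8e-05) and YWHAQ at -0.71 (adjusted p = 0.00584), while YWHAE was at 0.69 (adjusted p = 0.00465). Of the general transcription factors, TAF5 (1.24), GTF2E1 (0.78) and TBPL1 (0.68) were called higher under si-LAMB3, as was TBP, and 0 of 9 lower. Of all 18206 genes 1198 were called higher and 1390 lower under si-LAMB3. Under genistein 0 of the 9 genes near SDHA and 0 of 8 cyclophilins were called lower, and 1 cyclophilin was called higher. Of all 18206 genes 1613 were called higher and 1377 lower under genistein, so few calls would be found in lists this short.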

How the data were processed

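RNA of treated and control cells from 7 cell lines was hybridised to 24 two-colour Agilent arrays, and Agilent Feature Extraction 10.7.3.1 made the values, per the file headers. The deposited log10 ratio of each spot is Cy5 over Cy3 after the software's background subtraction and dye normalization, and the deposited intensity is the processed Cy3 signal. Ratios were turned to log2 and spots of a probe averaged. Probes well above background in at least 0.5 of their spots on 12 or more arrays were kept (23423 probes, 18206 genes), each gene by its brightest probe. limma 3.58.1 in R 4.3.3 tested the log2 ratios on all 24 arrays with a mean per treatment, with Benjamini-Hochberg adjustment over all probes tested and a threshold of 0.05, and tables were made in Python 3.11.15 with pandas 2.3.3. Control levels were log2 intensity minus the array's 75th percentile, fitted on line and slide. The number of arrays limits the precision. The fits were tested on simulated data.

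The members and the gene lists were chosen with earlier results of these data known. Genes named outside the 8 come from fixed lists, from the 3 highest correlations with each member and from the 5 smallest SDs. All 8 members were described, and a few genes that these rules name are not reported here. Positions are those of hg19 in the array files, and exon and UTR annotations were not used here. The labels name Trizol for RNA extraction, and the study's methods name another kit for the genistein cells and a vehicle as their control. Alternatives were other background corrections, centring, filters and probe summaries, slide as a random block, the first array design alone and each array left out in turn.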

Additional observations from a re-analysis of the deposited data

Results flagged for a closer look

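Dixon's test, which chance passes in about 1 of 20 groups, was applied to the control level of each reference gene in lines with 4 to 10 arrays, 24 groups in all, and marked 1. TFRC in 786O was at 2.59 above the 75th percentile (log2 scale) on the si-CAV2 array, against 5.16 to 5.65 on the other 3. The si-CAV2 array was on slide 1 and the others on slide 3.

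In 26 of 96 comparisons of 2 lines under the same treatment a reference gene had opposite signs, and in 4 the lines were more than 0.5 apart. These differences were not tested, since each line is 1 array. GUSB under wogonin was at -0.45 in SAS and 0.07 in FaDu, a difference of -0.51. HPRT1 under genistein was at -0.37 in PC3 and 0.26 in DU145, a difference of -0.62. TFRC under miR-145 was at 0.07 in LNCap, with PC3 lower by a difference of -0.83 and DU145 by a difference of -0.63.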

How the results depend on the processing

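No paired analysis was possible because every line and treatment is 1 array with the replicate number 1, so the groups share fewer than 2 numbers. With the first array design alone (16 arrays), 2 pairs of gene and treatment were called in place of 6, 1 gene in place of 4 among treatments and 0 in place of 2 for small molecules, and the median M was 0.556 in place of 0.466. With slide as a random block these were 3 pairs (HPRT1 under miR-145, SDHA under genistein and TBP under si-LAMB3 were lost) and 2 genes among treatments. Median centring and the mean over probes each left 1 call for small molecules, and no filter on dim probes left 0. Other background corrections (normexp, or none) gave 1 call of the mean over arrays in place of 0, PPIA. Without the PC3 miR-24 array, a choice made after seeing the data, 1 gene was called among treatments and the median M was 0.393. Means near 0 changed sign: ACTB was -0.011 with the mean over probes and -0.028 with the first design, HPRT1 0.053 without PC3 miR-24, PPIA -0.072 with the mean over probes, and TBP -0.011 with median centring and -0.0086 without PC3 miR-24.

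With each array left out in turn, a treatment reduced to 1 array being assumed to vary like the others, 2 to 7 pairs, 1 to 5 genes among treatments and 0 to 2 for small molecules were called, the median M was 0.393 to 0.476, and the means ran from -0.065 to 0.053 for HPRT1, -0.047 to 0.016 for SDHA and -0.018 to 0.020 for TBP. The ACTB call among treatments was lost in 14 of 24 removals, PPIA in 10, TFRC in 4 and HPRT1 in 0. The causes were not tested. The median SD stayed between 0.278 and 0.385 under every setting run, and 4 to 7 genes differed among lines.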

Other observations

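POLR2A, the large subunit of RNA polymerase II and another common reference, was at 1.28 on the PC3 miR-24 array and had an SD of 0.506 over 24 arrays, above all 8 reference genes described. IPO8, an importin, was at 0.73 and CYC1, cytochrome c1, at -1.07 on that array, with RPLP0 at -0.05 and PSMB4 at 0.02. GAPDH was at 0.20 there and had its highest value, 1.27, on the FaDu miR-375 array.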
